A study of Mus musculus with 47 samples.

Results

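The maturation step examined here was the passage from MHC-II-low to MHC-II-high medullary thymic epithelial cells (mTECs) in neonatal control mice. The libraries were chosen by their labels, as neonatal Ctrl libraries of the mTEChi fraction (5 libraries) and of the mTEClo fraction (3 libraries). This is 8 of the 47 libraries of the series, and earlier results of these data were known when they were chosen. All mice were C57BL/6. The labels give the genotype as Ctrl and say no more about which alleles these controls carried. They belong to an experiment in which Eed, a core subunit of Polycomb repressive complex 2, was deleted in thymic epithelium with a Foxn1-driven Cre. Aire-knockout mice and mice lacking both Aire and Eed were part of the same experiment. Cells were sorted from thymus as DAPI-CD45-EpCAM+Ly51- cells with high (mTEChi) or low (mTEClo) surface MHC-II. The mTEClo libraries came from mice of 2 to 3 days (replicate 1, female, and replicate 2, male) and of 1 day (replicate 3, both sexes pooled). The mTEChi libraries came from mice of 6 days (replicates 1 and 2, male), 2 to 3 days (replicate 3, female, and replicate 4, male) and 1 day (replicate 5, both sexes pooled). Mice of 6 days were thus represented in mTEChi only. The labels do not say whether replicates are separate litters or sorts. The p-values below thus measure a spread between libraries that may be partly technical. The main test took this spread from all 24 neonatal libraries in 7 groups. Besides the controls, these were both fractions without Eed or without Eed and Aire, and mTEChi without Aire, from mice of 1 to 6 days.

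Medullary thymic epithelial cells display proteins of peripheral tissues to developing thymocytes, and thymocytes that recognise these self-antigens strongly are deleted or become regulatory T cells. Immature mTECs carry little surface MHC-II. As they mature, they gain MHC-II and the costimulatory ligand CD80, and many switch on Aire, the regulator that drives expression of a large number of tissue-restricted genes. Some mTECs take on gene programs of peripheral cell types, such as enterocytes, keratinocytes, muscle, tuft or microfold cells, and are called mimetic cells.

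Total counts were 2886112, 2790029 and 1805331 in mTEClo and 1726637, 1676830, 3418616, 3590620 and 4025158 in mTEChi, so the mTEChi libraries of 6 days were also the shallowest ones, and age and depth cannot be told apart within mTEChi. Values are given below as CPM, counts scaled to a total of 1000000 after TMM normalisation, in the order of the replicate numbers. With 3 counts taken as the floor of detection, the smallest measurable level was 0.703 to 1.73 CPM in the 8 libraries. A gene was called when edgeR's quasi-likelihood test, fitted to all 24 neonatal libraries, gave a Benjamini-Hochberg adjusted p below 0.05 and a change of at least 2-fold. Of 20196 genes tested, 2780 (13.8%) were called higher and 1398 (6.92%) lower in mTEChi, so that 20.7% were called in either direction; over all of them the log2 fold change had a median of -0.0050. The 5 mTEChi and 3 mTEClo libraries did not overlap in 45.3% of all genes tested. These shares over all genes are the background for the counts of list members given below for this test. Without mTEClo replicate 3, the library of 1 day, 1836 genes were called higher and 991 lower. Transcripts read out in bulk cannot tell fewer cells of a type from less RNA per cell.

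**Figure D1:**
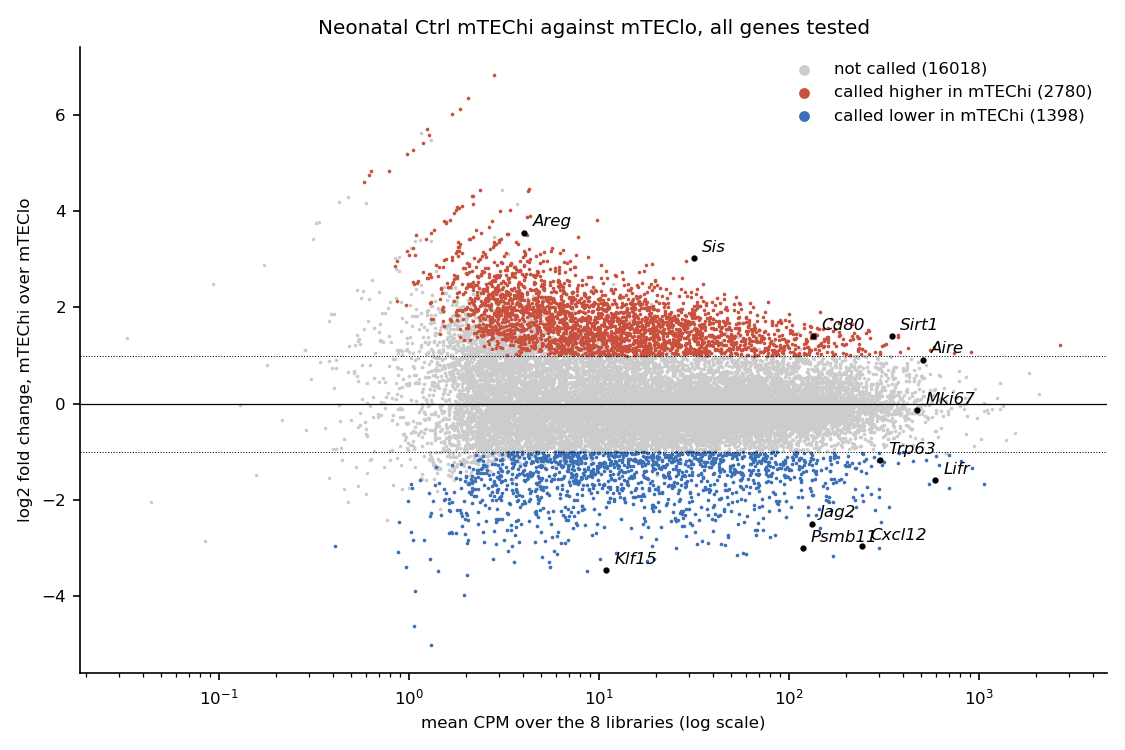
Log2 fold change of mTEChi over mTEClo (y axis) against the mean CPM over the 8 libraries (x axis, log scale) for the 20196 genes tested in neonatal Ctrl mice. Red points are the 2780 genes called higher, blue points the 1398 called lower, and dotted lines mark a 2-fold change; Psmb11, Cxcl12 and Jag2 lie far below 0 at high levels, whereas Aire lies just under the upper line.

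Among the regulators of mature mTECs, Fezf2, a zinc-finger factor that controls a set of tissue-restricted antigens, rose, while Aire was not called. Aire (chr10:78030022-78043610, GENCODE vM21, GRCm38) measured 324, 327 and 333 CPM in mTEClo and 757, 808, 509, 464 and 555 CPM in mTEChi. Every mTEChi library lay above every mTEClo library, and the libraries of 6 days were the highest. Its log2 fold change was 0.91 ± 0.40 (SE) with edgeR adjusted p = 0.0764, and the test within the 8 libraries alone gave 0.91 (edgeR adjusted p = 0.000478). Without the mTEChi libraries of 6 days the change was 0.63 (edgeR adjusted p = 0.288). Fezf2 (chr14:12342094-12348189) measured 82.8, 88.0 and 64.1 CPM in mTEClo and 242, 239, 152, 141 and 181 CPM in mTEChi, with no overlap between the fractions (log2 fold change 1.27 ± 0.33 (SE) with edgeR adjusted p = 0.00464). Without the libraries of 6 days the change of Fezf2 was 1.00 (edgeR adjusted p = 0.0367). Both regulators were thus measured in every library of the MHC-II-low fraction.

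**Figure D2:**
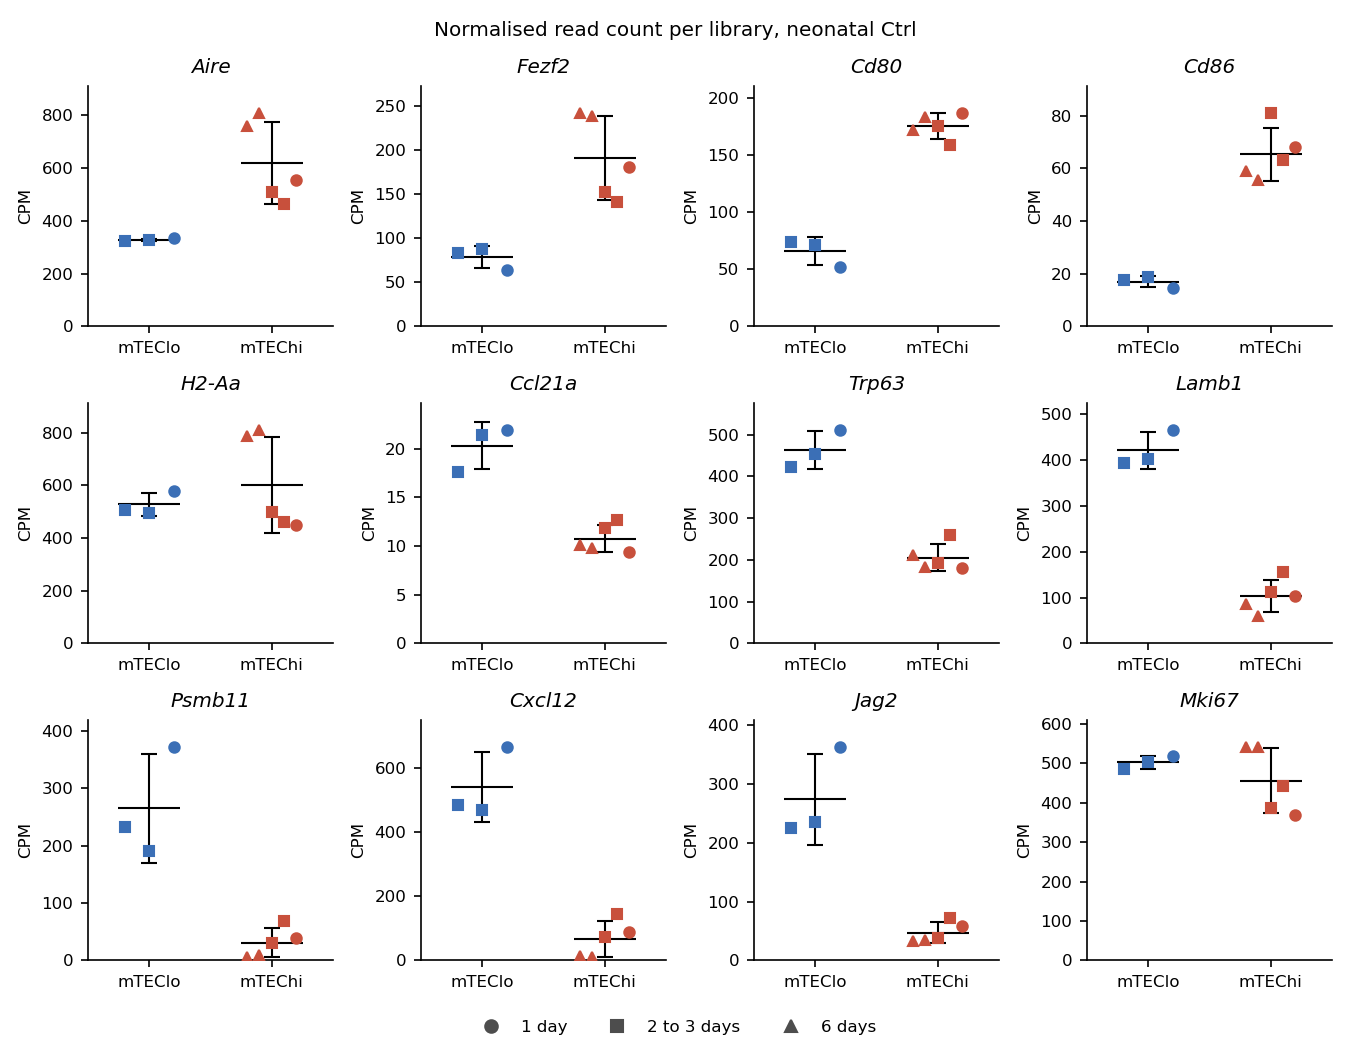
CPM (y axis, from 0) of 12 genes in each neonatal Ctrl library of mTEClo (blue, n = 3) and mTEChi (red, n = 5), with the marker shape giving the age of the mice and black bars the mean and SD. Cd80, Cd86, Trp63, Lamb1, Psmb11, Cxcl12 and Jag2 separate the fractions, and H2-Aa and Mki67 do not; the triangles (6 days) are the highest mTEChi values of Aire, Fezf2 and H2-Aa.

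Among the costimulatory ligands, Cd80, Cd86, Tnfsf4 and Tnfsf9 rose. Of 13 listed genes, 12 of them tested, 4 were called higher and 0 lower, and the median log2 fold change was 0.73. Cd80, a ligand of CD28 and CTLA-4, measured 74.0, 71.5 and 51.8 CPM in mTEClo and 172, 184, 176, 159 and 187 CPM in mTEChi, and the groups did not overlap (log2 fold change 1.40 ± 0.34 (SE) with edgeR adjusted p = 0.00314). Cd86, the partner ligand of the same receptors, measured 17.6, 18.6 and 14.6 CPM in mTEClo and 59.1, 55.4, 81.1, 63.1 and 68.1 CPM in mTEChi without overlap (log2 fold change 1.94 ± 0.47 (SE) with edgeR adjusted p = 0.00309). In contrast to Aire and Fezf2, the libraries of 6 days lay within the younger mTEChi libraries for Cd80 and below them for Cd86. Tnfsf4 (OX40 ligand) and Tnfsf9 (4-1BB ligand) were also called, with log2 fold changes of 2.09 and 1.03. Cd40, the receptor for CD40 ligand, measured 90.6 to 113 CPM in mTEClo and 139 to 188 CPM in mTEChi and was not called (log2 fold change 0.66 ± 0.26 (SE) with edgeR adjusted p = 0.0506). Without mTEClo replicate 2 or replicate 3, 2 of these ligands were called higher.

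The MHC class II genes gave 2 calls. Of 13 listed genes, all tested, 2 were called higher and 0 lower, and the median log2 fold change was 0.25. Over all genes tested, 13.8% were called higher. H2-Aa, the class II alpha chain, measured 507, 497 and 579.5 CPM in mTEClo and 788, 811, 498, 460.4 and 449.9 CPM in mTEChi. The mTEChi libraries of 6 days lay above mTEClo and the younger mTEChi libraries overlapped it or lay below it, so the log2 fold change of 0.18 ± 0.24 (SE) with edgeR adjusted p = 0.572 became -0.17 without those 2 libraries (edgeR adjusted p = 0.606). Ciita, the transactivator of the class II genes, had a log2 fold change of 0.25 ± 0.19 (SE) with edgeR adjusted p = 0.318. The sort had separated the fractions by surface MHC-II protein. The 2 members called were H2-Ob and Ctss. H2-Ob, the beta chain of the H2-O molecule that restrains peptide loading by H2-DM, measured 18.9, 19.6 and 18.6 CPM in mTEClo and 64.7, 66.4, 69.9, 67.6 and 52.7 CPM in mTEChi without overlap (log2 fold change 1.75 ± 0.38 (SE) with edgeR adjusted p = 0.00123). Ctss, the cathepsin that trims the invariant chain, measured 59.1, 47.0 and 44.4 CPM in mTEClo and 143, 156, 104, 109.6 and 113 CPM in mTEChi without overlap (log2 fold change 1.30 ± 0.33 (SE) with edgeR adjusted p = 0.00443). No member of the MHC class I and immunoproteasome list was called by edgeR (0 of 13, median log2 fold change 0.17) or by DESeq2. In the edgeR fit 4 of the 13 had an unadjusted p below 0.05 and 3 an adjusted p below 0.05.

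The promoters of H2-Aa and H2-Ob are shown because the class II genes share an upstream module whose inverted CCAAT box reads ATTGG, and only 1 of these genes was called. The sequences are from RefSeq (GRCm38.p6), 5′ to 3′ along the gene, and end at the base before the annotated start. The capitals mark ATTGG, searched on both strands in the 250 bases before the start.
H2-Aa: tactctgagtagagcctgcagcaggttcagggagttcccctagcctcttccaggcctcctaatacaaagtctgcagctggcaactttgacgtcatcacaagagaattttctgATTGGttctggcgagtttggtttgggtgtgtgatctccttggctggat
H2-Ob: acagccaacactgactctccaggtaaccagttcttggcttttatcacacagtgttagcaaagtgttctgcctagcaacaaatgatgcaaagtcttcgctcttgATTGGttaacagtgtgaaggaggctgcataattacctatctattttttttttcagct
The H2-Aa stretch is chr17:34287824-34287983, minus strand, and the H2-Ob stretch chr17:34238745-34238904, plus strand. Of the 13 listed genes 10 had a promoter in the table, and 7 of these held the letters, against 34.3% of all 27025 promoters. H2-Ob held them and Ctss did not.

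Receptors and signal carriers of the NF-kB pathway, which the TNF family ligands RANKL, CD40L and lymphotoxin use to drive mTEC development, were called in both directions. Of 21 listed genes, all tested, 2 were called higher and 1 lower, and the median log2 fold change was 0.30. Over all genes tested, 13.8% were called higher and 6.92% lower. Without the fold limit, 8 members were higher and 3 lower at an edgeR adjusted p below 0.05. Traf1, an adaptor of TNF receptors, had a log2 fold change of 1.13, and Tnfrsf11b (osteoprotegerin, the decoy receptor of RANKL) of 1.04. Ltbr, the lymphotoxin beta receptor, fell, from 42.6, 43.5 and 77.1 CPM in mTEClo to 17.4, 23.7, 20.4, 16.9 and 32.1 CPM in mTEChi (log2 fold change -1.26 ± 0.21 (SE) with edgeR adjusted p = 9.49e-05). Tnfrsf11a (RANK) had a log2 fold change of 0.60 ± 0.22 (SE) with edgeR adjusted p = 0.0395 and Relb, the effector of the non-canonical branch, of 0.24, both below the 2-fold limit. Leaving out mTEClo replicate 2, mTEClo replicate 3, mTEChi replicate 1 or both libraries of 6 days left 1 gene called higher, and without mTEClo replicate 3 Ltbr was not called.

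Most of the tested antigens known to depend on Aire rose. Of 24 listed genes, 20 of them tested, 14 were called higher and 0 lower, and the median log2 fold change was 1.62. Csn3 (kappa casein, a milk protein) measured 1.35, 1.40 and 1.69 CPM in mTEClo and 5.63, 10.4, 13.2, 7.39 and 12.2 CPM in mTEChi, Fgb (the fibrinogen beta chain) 2.03, 4.91 and 0.563 CPM in mTEClo and 12.9, 14.4, 16.2, 15.8 and 17.1 CPM in mTEChi. Ins2 (insulin) measured 1.35, 1.75 and 0.563 CPM in mTEClo and 9.56, 6.35, 8.80, 7.66 and 5.39 CPM in mTEChi. In all of these genes the 2 fractions did not overlap, and their log2 fold changes were 2.73, 2.51 and 2.50 (edgeR adjusted p = 0.00117, 0.0132 and 0.00119). Csn3 and Ins2 in mTEClo, and Fgb in mTEClo replicate 3, lay near or under the floors of 1.01, 1.05 and 1.69 CPM. The sizes of these changes are thus uncertain, and the call of Fgb was lost in 3 of 20 alternatives. Csn2 (beta casein) measured 202, 192 and 158 CPM in mTEClo and 439.9, 431, 317, 311 and 292 CPM in mTEChi and was not called (log2 fold change 0.95 ± 0.42 (SE) with edgeR adjusted p = 0.0754). Myh6 (the cardiac myosin heavy chain), Tg (thyroglobulin) and Muc5ac (a gastric mucin) rose by 2.34, 1.60 and 1.36 on the log2 scale. The call of Muc5ac was lost in 10 of 20 alternatives. The summed level of the list was 677, 565 and 453 CPM in mTEClo and 1368, 1356, 1279.8, 1144 and 1211 CPM in mTEChi. All mTEChi sums lay above all mTEClo sums, and no mTEClo sum was at 0. The count called was 8, 8 and 6 without mTEClo replicates 1, 2 and 3.

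Most antigens that earlier work ties to Fezf2 rose as well. Of 10 listed genes, all tested, 8 were called higher and 0 lower, and the median log2 fold change was 1.82. Calb1 (calbindin, a calcium buffer) measured 4.05, 4.21 and 1.69 CPM in mTEClo and 32.1, 22.5, 27.0, 24.8 and 25.3 CPM in mTEChi (log2 fold change 2.89 ± 0.64 (SE) with edgeR adjusted p = 0.00158). Ttr (transthyretin, a carrier of thyroid hormone) measured 5.40, 1.05 and 2.25 CPM in mTEClo and 20.3, 26.6, 12.1, 8.18 and 5.62 CPM in mTEChi (log2 fold change 2.19 ± 0.78 (SE) with edgeR adjusted p = 0.0316). In both genes all mTEChi libraries lay above all mTEClo libraries. Apoa4 (apolipoprotein A-IV) rose by 1.91 on the log2 scale. Apob (apolipoprotein B) went from 126, 57.9 and 46.7 CPM in mTEClo to 179, 327, 267, 244 and 225 CPM in mTEChi. The calls of Apoa4 and Apob were each lost in 8 of 20 alternatives. The count called was 4 without mTEClo replicate 2 or 3, 5 without mTEChi replicate 2, 3 or 4 and 5 without both libraries of 6 days.

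The proteins that bind Aire or work with it gave 1 call in each direction. Of 20 listed genes, all tested, 1 was called higher and 1 lower, and the median log2 fold change was -0.22. Sirt1, a deacetylase that acts on Aire, measured 195, 172 and 148 CPM in mTEClo and 612, 586, 354, 344 and 374 CPM in mTEChi without overlap (log2 fold change 1.40 ± 0.34 (SE) with edgeR adjusted p = 0.00349). Xrcc5 (Ku80, a DNA repair factor) fell, from 120.2, 112 and 132 CPM in mTEClo to 33.2, 31.2, 34.7, 57.3 and 35.4 CPM in mTEChi (log2 fold change -1.64 ± 0.20 (SE) with edgeR adjusted p = 2.65e-06). Sirt1 was, as Aire was, highest in the libraries of 6 days.

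Of the programs of mimetic cells, the enterocyte list had the largest share of members called higher. Of 20 listed genes, all tested, 17 were called higher and 0 lower, and the median log2 fold change was 1.68. Sis (sucrase-isomaltase of the intestinal brush border) measured 6.42, 6.66 and 3.38 CPM in mTEClo and 60.2, 65.8, 36.6, 49.4 and 24.6 CPM in mTEChi without overlap (log2 fold change 3.02 ± 0.47 (SE) with edgeR adjusted p = 5.65e-05). Fabp2, the intestinal fatty acid binding protein, had a log2 fold change of 2.23 ± 0.44 (SE) with edgeR adjusted p = 0.000773. The factors Hnf4g and Hnf4a, which direct the enterocyte program, had log2 fold changes of 2.13 and 1.80, and Hnf4g went from 14.2, 13.0 and 6.19 CPM in mTEClo to 47.8, 47.4, 56.4, 51.5 and 47.8 CPM in mTEChi. Apoa1 (apolipoprotein A-I) and Lypd8, a protein that keeps bacteria off the colonic epithelium, rose by 1.53 and 1.97. The summed level of the list was 506, 378 and 343 CPM in mTEClo and 1076, 1309, 1116, 990.0 and 1015 CPM in mTEChi. All 5 mTEChi sums lay above the 3 mTEClo sums.

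In the endocrine list, 13 of 22 tested were called higher and 1 lower (median log2 fold change 1.48). Sst (somatostatin) measured 6.42, 5.26 and 6.75 CPM in mTEClo and 29.3, 42.7, 22.3, 29.0 and 38.4 CPM in mTEChi without overlap (log2 fold change 2.39 ± 0.45 (SE) with edgeR adjusted p = 0.000511). Pyy (peptide YY) measured 1.01, 4.91 and 3.94 CPM in mTEClo and 10.7, 14.4, 13.5, 15.3 and 22.7 CPM in mTEChi (log2 fold change 2.27 ± 0.78 (SE) with edgeR adjusted p = 0.0277). Isl1, a LIM-homeodomain factor also expressed in the thymic rudiment, was the member called lower (log2 fold change -1.16 ± 0.19 (SE) with edgeR adjusted p = 0.00011). Chgb (chromogranin B of secretory granules), Gip (the incretin of duodenal K cells) and Nkx2-1 (the thyroid and lung factor) rose by 2.02, 2.04 and 2.12 on the log2 scale. The call of Nkx2-1 was lost in 10 of 20 alternatives. Foxa2, also called higher, lay at 0 to 1.40 CPM in mTEClo and 2.11 to 4.22 CPM in mTEChi, near the floor of detection in mTEClo. Without mTEClo replicate 2 or 3, 8 and 5 endocrine genes were called higher, and without replicate 3 none was called lower.

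In the cornified keratinocyte list, 10 of 23 tested were called higher and 0 lower (median log2 fold change 1.18). Krt2 (a keratin of upper epidermal layers) measured 2.03, 1.75 and 2.25 CPM in mTEClo and 9.56, 13.3, 11.0, 12.7 and 9.84 CPM in mTEChi (log2 fold change 2.48 ± 0.71 (SE) with edgeR adjusted p = 0.0105), and Tgm3 (the transglutaminase that crosslinks the cornified envelope) 13.2, 13.0 and 7.31 CPM in mTEClo and 58.5, 35.8, 29.7, 47.3 and 43.8 CPM in mTEChi (3.74-fold higher, edgeR adjusted p = 0.0103). Neither overlapped between fractions. Casp14, a protease of the same layers, rose by 2.07 on the log2 scale, Krt1 by 1.32 and Flg (filaggrin) by 1.27. Krt10 and Ivl had log2 fold changes of 0.61 and 1.50 and were not called. Without mTEClo replicate 3, 3 members were called.

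In the muscle list, 7 of 25 tested were called higher and 0 lower (median log2 fold change 0.74), and its summed level was 1991, 2251 and 1319 CPM in mTEClo and 5360.1, 5567, 3594, 3467 and 3203 CPM in mTEChi. Ttn, the giant sarcomere protein whose length gives it many fragments, made up most of this sum, with 4539, 4758, 2752, 2716 and 2366 CPM in mTEChi against 1576, 1851 and 990.2 CPM in mTEClo (log2 fold change 1.22 ± 0.32 (SE) with edgeR adjusted p = 0.00587). Myh3 (embryonic myosin heavy chain) measured 15.9, 13.3 and 8.44 CPM in mTEClo and 62.4, 65.8, 49.5, 60.2 and 58.3 CPM in mTEChi without overlap (log2 fold change 2.20 ± 0.69 (SE) with edgeR adjusted p = 0.0158). Neb (nebulin) and Chrna1 (the acetylcholine receptor alpha subunit and a classical thymic self-antigen) rose by 1.48 and 1.42 on the log2 scale and Tnnt2 (cardiac troponin T) by 1.31, whereas Myog, the myogenic factor, had a log2 fold change of 0.60 ± 0.46 (SE) with edgeR adjusted p = 0.322. Without mTEClo replicate 3, 4 members were called.

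In the ciliated list, 8 of 22 tested were called higher and 0 lower (median log2 fold change 0.60). Mcidas, which starts the multiciliated program, measured 8.78, 8.77 and 4.50 CPM in mTEClo and 35.4, 23.1, 21.5, 21.1 and 33.5 CPM in mTEChi (log2 fold change 1.82 ± 0.53 (SE) with edgeR adjusted p = 0.0106). Tekt1 (a tektin of the ciliary axoneme) and Ccno (a cyclin that multiciliated cells need to amplify centrioles) rose by 1.86 and 1.39 on the log2 scale. Foxj1, the factor of motile ciliogenesis, had a log2 fold change of 0.55 ± 0.33 (SE) with edgeR adjusted p = 0.189. Without mTEClo replicate 2, 5 members were called higher, and without mTEClo replicate 1 or mTEChi replicate 4, 1 was called lower.

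In the microfold list, 5 of 13 tested were called higher and 0 lower (median log2 fold change 0.80). Ccl20, a chemokine of follicle-associated epithelium, measured 32.1, 18.2 and 15.8 CPM in mTEClo and 40.5, 39.9, 68.2, 61.0 and 61.8 CPM in mTEChi (log2 fold change 1.29 ± 0.49 (SE) with edgeR adjusted p = 0.0423). Sox8 and Aif1 rose by 1.47 and 1.77 on the log2 scale, and Spib, the factor required for microfold cells, and Gp2, their bacterial uptake receptor, had log2 fold changes of 0.38 and 0.80 without a call. Without mTEClo replicate 2 or 3, 2 and 3 members were called. In the ionocyte list, 4 of 12 tested were called higher and 0 lower (median log2 fold change 0.94), among them Foxi1, the ionocyte factor, at 6.08, 3.86 and 5.06 CPM in mTEClo and 12.4, 12.1, 14.6, 26.1 and 12.6 CPM in mTEChi. Pparg, Cftr (the chloride channel of ionocytes) and Foxi1 rose by 1.37, 1.07 and 1.66 on the log2 scale, and Ascl3 had a log2 fold change of -1.58 ± 0.91 (SE) with edgeR adjusted p = 0.176. Only 1 ionocyte gene was called without mTEClo replicate 3.

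In the goblet and mucin list, 5 of 20 tested were called higher and 2 lower (median log2 fold change 0.50). Tff3 (a trefoil peptide secreted with mucus) measured 4.05, 3.86 and 3.38 CPM in mTEClo and 14.1, 15.6, 14.3, 13.7 and 15.9 CPM in mTEChi without overlap (log2 fold change 1.94 ± 0.64 (SE) with edgeR adjusted p = 0.0202). Muc5b, the gel-forming mucin of airways, measured 258, 147 and 488 CPM in mTEClo and 35.4, 93.0, 95.2, 138 and 132 CPM in mTEChi (log2 fold change -1.56 ± 0.59 (SE) with edgeR adjusted p = 0.0406). Muc13 and Clca1 rose by 1.68 and 1.43 on the log2 scale, and Bpifa1, an airway secretory protein, was called lower at -1.02. Neither fall was called by DESeq2 or with library sizes as the only scaling, and the rises numbered 3, 2 and 2 without mTEClo replicates 1, 2 and 3 and 3 without mTEChi replicate 5. The falls numbered 1 without mTEClo replicate 1 or mTEChi replicate 2 or 4, and 0 without mTEClo replicate 3 or mTEChi replicate 1 or 3.

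Tuft genes gave no call in the edgeR fit across 24 libraries or by DESeq2. Of 20 listed genes, 17 of them tested, 0 were called higher and 0 lower, and the median log2 fold change was -0.72. Gnat3, the taste G protein of tuft cells, measured 30.7, 29.1 and 40.5 CPM in mTEClo and 18.0, 15.0, 5.50, 11.6 and 11.0 CPM in mTEChi (log2 fold change -1.49 ± 0.74 (SE) with edgeR adjusted p = 0.114). Pou2f3, the factor required for tuft cells, measured 59.8, 54.0 and 39.9 CPM in mTEClo and 31.5, 21.4, 31.9, 42.2 and 32.3 CPM in mTEChi (log2 fold change -0.68 ± 0.27 (SE) with edgeR adjusted p = 0.0499), and Trpm5, their taste transduction channel, had a log2 fold change of -0.72 ± 0.39 (SE) with edgeR adjusted p = 0.147. The summed level was 595, 618 and 555 CPM in mTEClo and 389.8, 332, 356, 422 and 394 CPM in mTEChi, so every mTEChi sum lay below every mTEClo sum. In the fit across 24 libraries 8 members had an unadjusted p below 0.05 and 3 an edgeR adjusted p below 0.05, these 3 all with a log2 fold change below 0, and the test within the 8 libraries called 4 lower.

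**Figure D3:**
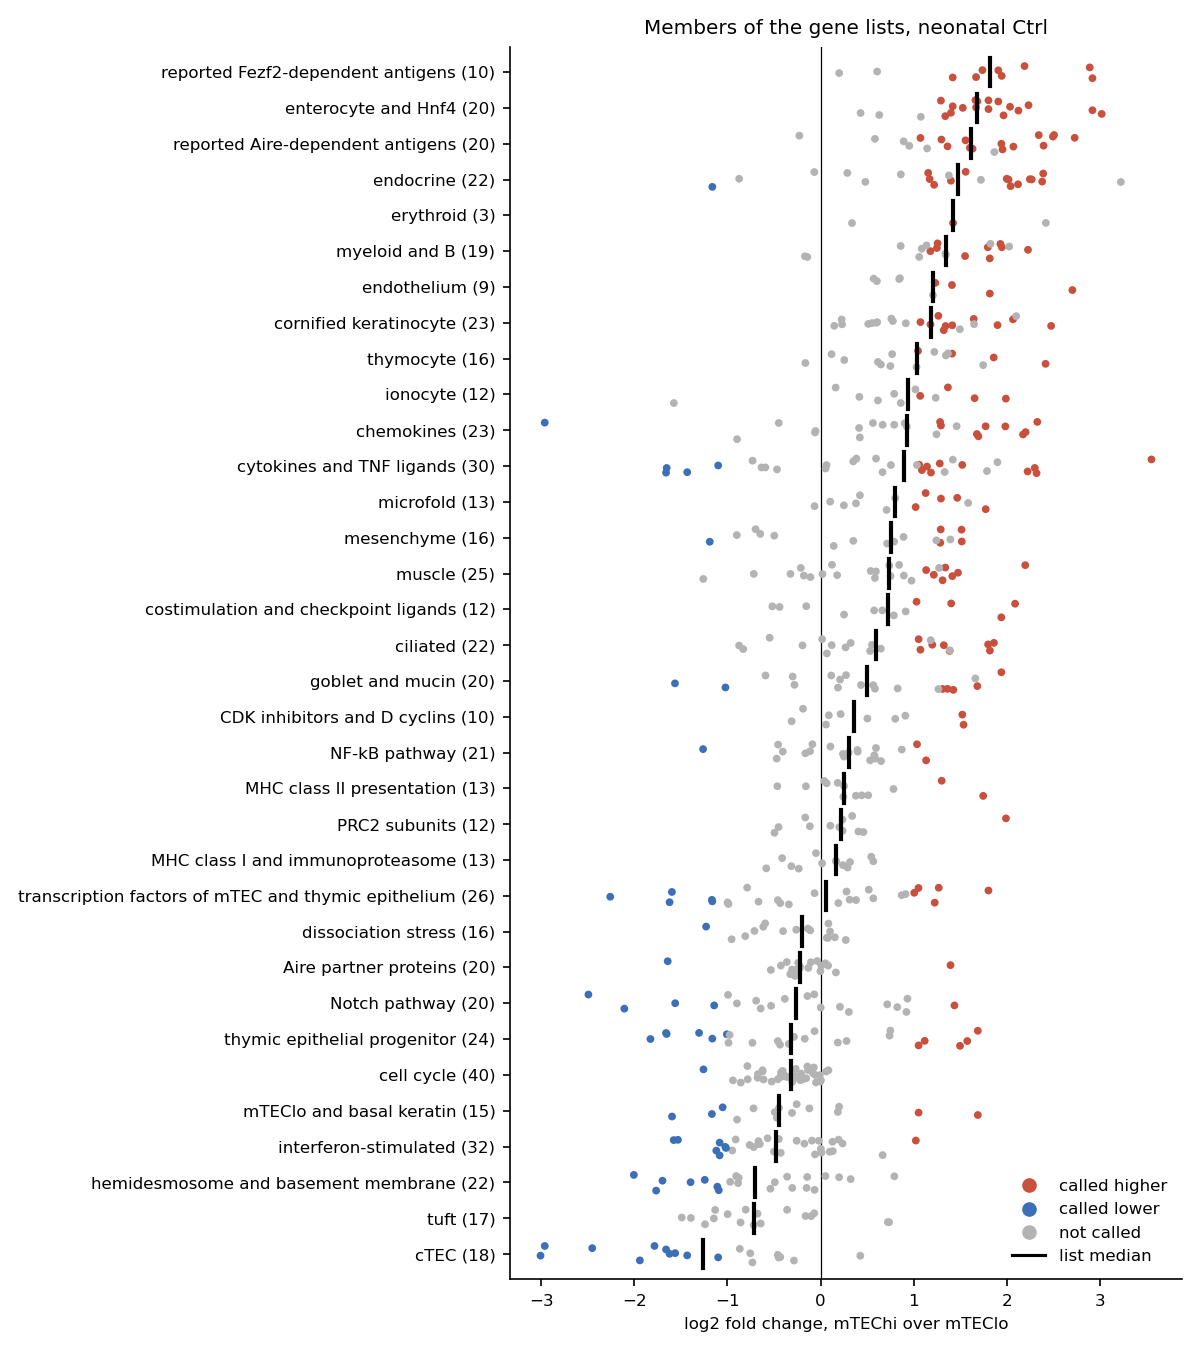
Log2 fold change of mTEChi over mTEClo (x axis) for each tested member of 34 gene lists (rows, number tested in brackets, ordered by list median). Red and blue points are members called higher and lower, grey points were not called and black bars are list medians, which run from -1.27 for the cTEC list to 1.82 for the Fezf2-dependent antigens.

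Among cortical epithelial (cTEC) genes, which have the lowest median of the 34 lists, 10 fell. Of 18 listed genes, all tested, 0 were called higher and 10 lower, and the median log2 fold change was -1.27. Psmb11 (chr14:54621433-54629556), the thymoproteasome subunit of cortical epithelium, measured 232, 190.1 and 372 CPM in mTEClo and 6.19, 8.66, 31.1, 69.2 and 38.9 CPM in mTEChi (log2 fold change -3.01 ± 0.61 (SE) with edgeR adjusted p = 0.000733). Cxcl12, the chemokine that holds thymocyte precursors in the cortex, measured 484, 468 and 666 CPM in mTEClo and 14.6, 11.0, 72.1, 145 and 87.1 CPM in mTEChi (log2 fold change -2.96 ± 0.48 (SE) with edgeR adjusted p = 7.45e-05). Prss16, the thymus-specific serine protease, measured 571, 534 and 781 CPM in mTEClo and 43.3, 39.3, 112, 229.9 and 135 CPM in mTEChi (log2 fold change -2.45 ± 0.45 (SE) with edgeR adjusted p = 0.000276). In all of these the groups did not overlap, the libraries of 6 days were the lowest and mTEChi replicate 4 the highest of the mTEChi libraries. Ly75 (DEC-205) and Ctsl (cathepsin L, which shapes the class II peptides of the cortex) fell by 1.94 and 1.78 on the log2 scale without overlap. Il7 and Kitl, growth factors for early thymocytes, and Dll4, the Notch ligand that commits them to the T lineage, had log2 fold changes of -1.10, -1.43 and -1.56. Foxn1, the factor of all thymic epithelium, had a log2 fold change of -0.43 ± 0.19 (SE) with edgeR adjusted p = 0.0723, and Enpep, which encodes the Ly51 antigen excluded by the sort, of -0.76 ± 0.32 (SE) with edgeR adjusted p = 0.0641.

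The summed level of the cTEC list was 4559, 4098 and 6316 CPM in mTEClo and 1803, 1737, 1829.9, 2269.8 and 1951 CPM in mTEChi. The fractions did not overlap, and the lowest sums were those of 6 days. Without the libraries of 6 days, 10 of the 18 genes were called lower, and with each library left out in turn 8 to 10. Without mTEClo replicate 2, 1 member was called higher.

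In the Notch pathway, the ligands Jag2, Dll1 and Dll4 and the target Hey1 fell. Of 20 listed genes, all tested, 1 was called higher and 4 lower, and the median log2 fold change was -0.26. Jag2, a Notch ligand, measured 224, 234 and 363 CPM in mTEClo and 33.8, 34.7, 38.0, 72.9 and 57.6 CPM in mTEChi without overlap (log2 fold change -2.49 ± 0.28 (SE) with edgeR adjusted p = 1.19e-06). Hey1, a transcriptional target of the pathway, measured 73.6, 67.7 and 94.5 CPM in mTEClo and 14.1, 11.6, 15.7, 27.7 and 19.0 CPM in mTEChi without overlap (log2 fold change -2.11 ± 0.23 (SE) with edgeR adjusted p = 1.03e-06). Dll1 fell by 1.14 on the log2 scale, and the glycosyltransferase Mfng, which modifies Notch receptors, rose by 1.44. Without mTEClo replicate 1, 3 members were called higher, and without mTEChi replicate 3, 2.

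Among genes of the epithelial base, laminin and collagen IV chains, Lifr and Trp63 fell. In the hemidesmosome and basement membrane list, 0 of 22 tested were called higher and 7 lower (median log2 fold change -0.71). The laminin chain Lamb1 measured 393, 403 and 466 CPM in mTEClo and 86.1, 59.5, 111, 156 and 104 CPM in mTEChi without overlap (log2 fold change -2.01 ± 0.18 (SE) with edgeR adjusted p = 1.56e-07). Lamc1 and Lamb3, 2 further laminin chains, fell by 1.77 and 1.70 on the log2 scale. The other falls were Lama3, the collagen IV chains Col4a2 and Col4a5 and the proteoglycan Hspg2 (perlecan), from -1.40 to -1.09. Without mTEClo replicate 3, 5 members were called lower, and Hspg2 was at -0.67 and not called. In the mTEClo and basal keratin list, 2 of 15 tested were called higher and 3 lower (median log2 fold change -0.45). Over all genes tested, 13.8% were called higher and 6.92% lower. Lifr, the leukaemia inhibitory factor receptor, measured 935, 1058 and 1041 CPM in mTEClo and 248, 211, 370.2, 556 and 282 CPM in mTEChi (log2 fold change -1.60 ± 0.29 (SE) with edgeR adjusted p = 0.000228). Trp63, the factor that maintains stratified epithelial progenitors, measured 423, 453 and 512 CPM in mTEClo and 212, 182, 193, 261 and 181 CPM in mTEChi (log2 fold change -1.17 ± 0.14 (SE) with edgeR adjusted p = 2.65e-06). Neither overlapped between the fractions.

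The keratins of basal medullary cells were not called. Krt5 measured 309, 391 and 328 CPM in mTEClo and 271, 226, 244, 268 and 229 CPM in mTEChi (log2 fold change -0.47 ± 0.16 (SE) with edgeR adjusted p = 0.028), and Krt14 127, 182 and 175 CPM in mTEClo and 139.5, 126, 117, 143 and 127 CPM in mTEChi (log2 fold change -0.31 ± 0.22 (SE) with edgeR adjusted p = 0.282). Ccl21a, the chemokine that draws positively selected thymocytes to the medulla and marks part of the mTEClo, measured 17.6, 21.4 and 21.9 CPM in mTEClo and 10.1, 9.82, 11.8, 12.7 and 9.37 CPM in mTEChi. Its groups did not overlap, and the log2 fold change of -0.90 ± 0.17 (SE) with edgeR adjusted p = 0.000459 was short of 2-fold. The near-identical Ccl21 copies of the mouse genome share reads, and the counting kept only reads of sufficient mapping quality, so its level is uncertain. The tight-junction claudins Cldn3 and Cldn4, which mark medullary progenitors, were higher in mTEChi, with Cldn3 at 9.12, 11.6 and 7.88 CPM in mTEClo and 28.7, 29.5, 29.4, 21.6 and 45.9 CPM in mTEChi (log2 fold change 1.69 ± 0.34 (SE) with edgeR adjusted p = 0.000725). Epcam, used for the sort, was not called (0.15 ± 0.15 (SE) with edgeR adjusted p = 0.447). Without mTEClo replicate 3 or mTEChi replicate 5, 1 of the 2 claudins was called.

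In the thymic epithelial progenitor list, 5 of 24 tested were called higher and 6 lower (median log2 fold change -0.31). Fstl1, a secreted antagonist of BMP signals, measured 130.0, 133 and 189.6 CPM in mTEClo and 29.8, 32.9, 36.0, 58.9 and 49.4 CPM in mTEChi (log2 fold change -1.83 ± 0.17 (SE) with edgeR adjusted p = 1.56e-07), and Wnt4, a Wnt ligand of the fetal thymus, 101, 106 and 139 CPM in mTEClo and 27.6, 21.9, 29.4, 55.2 and 43.3 CPM in mTEChi (log2 fold change -1.65 ± 0.22 (SE) with edgeR adjusted p = 1.08e-05). Both fell without overlap. Fst (follistatin) and Kremen1, a Dickkopf receptor, fell by 1.30 and 1.01 on the log2 scale, and Bmp4, at 1.69 to 4.56 CPM in mTEClo and 0.264 to 2.81 CPM in mTEChi, was called on levels close to the floor. The call of Kremen1, at the 2-fold limit, was lost in 14 of 20 alternatives and that of Bmp4 in 10 of 16. Lgr5 (an R-spondin receptor), Wnt10a and Plet1, a surface antigen of thymic epithelial progenitors, had log2 fold changes of 1.50, 1.58 and 1.12. Rises numbered 2, 3 and 3 without mTEClo replicates 1, 2 and 3 and 3 without mTEChi replicate 5, and falls 2 without mTEClo replicate 3.

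Among transcription factors of the thymic epithelium, 5 of 26 tested were called higher and 5 lower (median log2 fold change 0.064). Pax1 and Hoxa3, which pattern the pharyngeal pouch, and the homeodomain cofactor Meis1 fell. Pax1 measured 279.7, 262 and 478 CPM in mTEClo and 104, 103, 91.9, 135 and 115 CPM in mTEChi (log2 fold change -1.62 ± 0.16 (SE) with edgeR adjusted p = 4.18e-07), Hoxa3 12.8, 11.9 and 19.1 CPM in mTEClo and 1.69, 0.578, 2.20, 6.07 and 2.81 CPM in mTEChi (log2 fold change -2.26 ± 0.41 (SE) with edgeR adjusted p = 0.000258), and Meis1 fell by 1.60 on the log2 scale. All 3 were without overlap. Prdm1 (Blimp-1) and Irf4, factors of terminal lymphocyte differentiation, rose by 1.05 and 1.01, and Elf5, an ETS factor of glandular epithelium, by 1.23 on the log2 scale. Rises numbered 3 without mTEClo replicate 2, 2 without mTEClo replicate 3 and 3 without both libraries of 6 days.

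Of the proliferation genes, 1 was called. Of 40 listed genes, all tested, 0 were called higher and 1 lower, and the median log2 fold change was -0.32. Mki67 measured 485, 502 and 519.9 CPM in mTEClo and 542, 542, 386, 443 and 369.5 CPM in mTEChi, with overlap and a log2 fold change of -0.14 ± 0.25 (SE) with edgeR adjusted p = 0.678. Cdk1, the mitotic kinase, measured 94.9, 95.0 and 97.9 CPM in mTEClo and 107, 109, 84.4, 81.6 and 84.1 CPM in mTEChi (log2 fold change -0.049 ± 0.23 (SE) with edgeR adjusted p = 0.886), and its sign changed with the scaling. Foxm1, the factor of mitotic gene expression, was the single call, at 93.9, 96.4 and 105 CPM in mTEClo and 38.8, 34.1, 40.7, 45.9 and 44.5 CPM in mTEChi (log2 fold change -1.26 ± 0.24 (SE) with edgeR adjusted p = 0.000436). Without the fold limit, 9 members had an edgeR adjusted p below 0.05, all with a log2 fold change below 0. The summed level of the list was 3591, 3797 and 3814 CPM in mTEClo and 3258, 3153, 2894, 3204 and 2700 CPM in mTEChi. Every mTEChi sum thus lay below every mTEClo sum. Without mTEChi replicate 4 or 5, 2 members were called lower. In the list of CDK inhibitors and D cyclins, 2 of 10 tested were called higher and 0 lower (median log2 fold change 0.36). Cdkn2b (p15) measured 11.8, 14.4 and 10.1 CPM in mTEClo and 37.7, 31.2, 34.4, 29.8 and 44.5 CPM in mTEChi without overlap (log2 fold change 1.54 ± 0.25 (SE) with edgeR adjusted p = 7.84e-05). Cdkn2a (p16 and p19Arf), also called, lay at 0.563 to 2.36 CPM in mTEClo and 2.11 to 6.19 CPM in mTEChi, with overlap. Without mTEClo replicate 2 or 3 or mTEChi replicate 5, 1 member of this list was called.

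The Polycomb repressive complex 2, whose subunit Eed is the target of the experiment to which these controls belong, was expressed in both fractions. Of 12 listed genes, all tested, 1 was called higher and 0 lower, and the median log2 fold change was 0.22. Eed measured 23.3, 23.5 and 25.9 CPM in mTEClo and 38.8, 35.8, 27.0, 23.5 and 20.4 CPM in mTEChi (log2 fold change 0.24 ± 0.21 (SE) with edgeR adjusted p = 0.381), with overlap. Ezh2, the methyltransferase subunit, and Suz12, the scaffold, had log2 fold changes of 0.41 and 0.24, and Epop, an accessory subunit, was called at levels of 0.563 to 1.75 CPM in mTEClo and 2.75 to 6.93 CPM in mTEChi.

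Secreted signals were called in both directions. In the chemokine list, 9 of 23 tested were called higher and 1 lower (median log2 fold change 0.93), the fall being Cxcl12. Ccl28 measured 4.73, 1.05 and 1.13 CPM in mTEClo and 12.4, 16.2, 5.78, 11.1 and 12.4 CPM in mTEChi (log2 fold change 2.20 ± 0.65 (SE) with edgeR adjusted p = 0.0113). Ccl7 (a monocyte chemoattractant) and Xcl1 (which attracts cross-presenting dendritic cells) rose by 2.18 and 2.33 on the log2 scale, as did Cxcl13, a B cell attractant, by 1.68. In the cytokine list, 10 of 30 tested were called higher and 4 lower (median log2 fold change 0.90), the falls being Wnt4, Il7, Kitl and Bmp4. Lta and Ltb (the lymphotoxin chains) and Tnf rose by 2.22, 1.19 and 1.28 on the log2 scale. Areg (amphiregulin), a ligand of the EGF receptor, measured 1.01, 0.351 and 0 CPM in mTEClo and 2.25, 4.62, 6.33, 7.66 and 10.3 CPM in mTEChi, and Ereg (epiregulin), a ligand of the same receptor, 1.69, 3.16 and 6.19 CPM in mTEClo and 18.6, 11.6, 14.9, 14.8 and 24.8 CPM in mTEChi. Tslp, an epithelial cytokine that acts on dendritic cells, measured 1.35, 2.46 and 0.563 CPM in mTEClo and 9.56, 10.4, 4.13, 7.39 and 8.90 CPM in mTEChi (log2 fold change 2.32 ± 0.69 (SE) with edgeR adjusted p = 0.0114). Areg, Ereg and Tslp each lay above the floor of detection and above all mTEClo values in every mTEChi library. Chemokine rises numbered 5 and 3 without mTEClo replicates 2 and 3, and without mTEClo replicate 3, 6 cytokines were called higher and 2 lower.

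Of the interferon-stimulated genes, 7 fell and 1 rose. Of 32 listed genes, all tested, 1 was called higher and 7 lower, and the median log2 fold change was -0.47. Xaf1 measured 88.5, 98.2 and 106 CPM in mTEClo and 20.3, 17.3, 38.0, 50.7 and 31.6 CPM in mTEChi (log2 fold change -1.58 ± 0.28 (SE) with edgeR adjusted p = 0.000222), and Ifi44 167, 148 and 171 CPM in mTEClo and 40.5, 41.0, 60.8, 83.7 and 49.6 CPM in mTEChi (log2 fold change -1.53 ± 0.28 (SE) with edgeR adjusted p = 0.000278). Neither overlapped between fractions. Ddx58 (RIG-I, a cytosolic RNA sensor), Ifi27l2a and Rtp4 fell by 1.12, 1.08 and 1.08 on the log2 scale. Isg15, a ubiquitin-like modifier, measured 28.7, 21.4 and 7.88 CPM in mTEClo and 4.50, 5.78, 11.0, 12.7 and 12.4 CPM in mTEChi (log2 fold change -1.02 ± 0.40 (SE) with edgeR adjusted p = 0.0486), and Ifit3 47.3, 43.1 and 39.9 CPM in mTEClo and 10.1, 15.0, 22.8, 34.8 and 20.6 CPM in mTEChi (log2 fold change -1.02 ± 0.38 (SE) with edgeR adjusted p = 0.0369). By contrast, Ifit1 measured 109, 104 and 94.0 CPM in mTEClo and 79.3, 94.1, 121, 129 and 133 CPM in mTEChi (log2 fold change 0.13 ± 0.24 (SE) with edgeR adjusted p = 0.703) and Rsad2 (viperin) 69.9, 70.5 and 60.2 CPM in mTEClo and 57.9, 59.5, 63.5, 82.9 and 100.0 CPM in mTEChi (log2 fold change 0.13 ± 0.20 (SE) with edgeR adjusted p = 0.637). Isg15 overlapped between the fractions, Ifit3 did not, and Ifit1 and Rsad2 did. Oasl1, an oligoadenylate synthase-like gene, was the single member called higher (log2 fold change 1.02 ± 0.29 (SE) with edgeR adjusted p = 0.00839). The calls of Isg15 and Ifit3 were lost in 15 and 14 of 20 alternatives, and without mTEClo replicate 1 Isg15 was at -0.62 (edgeR adjusted p = 0.313). The count called lower was 2 without both libraries of 6 days and 4 without mTEClo replicate 3 or mTEChi replicate 1 or 2, and Oasl1 was not called without mTEChi replicate 5 or with the log2 total count in the fit.

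Promoters of 4 of these genes are printed to show where the motif lies in 2 members that were called lower, though not firmly (Isg15 and Ifit3), and in 2 that were not called (Ifit1 and Rsad2). The capitals mark GAAANNGAAA on either strand, the core of the interferon-stimulated response element, in RefSeq promoters of GRCm38.p6, 5′ to 3′ along the gene and ending before the start.
Isg15: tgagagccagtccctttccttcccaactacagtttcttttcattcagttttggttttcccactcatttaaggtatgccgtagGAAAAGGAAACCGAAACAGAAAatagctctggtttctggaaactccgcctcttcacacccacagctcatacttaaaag
Ifit3: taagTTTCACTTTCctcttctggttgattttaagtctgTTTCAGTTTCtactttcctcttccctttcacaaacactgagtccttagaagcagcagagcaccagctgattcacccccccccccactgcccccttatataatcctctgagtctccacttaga
Ifit1: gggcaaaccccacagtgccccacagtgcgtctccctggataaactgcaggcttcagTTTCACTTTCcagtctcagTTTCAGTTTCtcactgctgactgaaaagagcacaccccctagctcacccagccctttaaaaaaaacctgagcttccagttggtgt
Rsad2: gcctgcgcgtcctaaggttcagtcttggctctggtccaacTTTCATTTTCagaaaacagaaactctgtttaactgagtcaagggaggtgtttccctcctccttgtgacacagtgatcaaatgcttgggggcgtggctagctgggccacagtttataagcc
These are chr4:156200819-156200978, minus strand (Isg15), chr19:34583369-34583528, plus strand (Ifit3), chr19:34640729-34640888, plus strand (Ifit1) and chr12:26456453-26456612, minus strand (Rsad2). Of 32 listed genes 24 had a promoter in the table. In the 250 bases before the start, 13 of the 24 held the letters, against 3.06% of all 27025 promoters. They were held by 2 of 5 members called lower, Isg15 and Ifit3, by 11 of 18 not called and not by Oasl1. Xaf1, Ifi44 and Ddx58, which were also called lower, did not hold them.

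Markers of other cell types of the thymus were measured as well, and 22 of the 63 tested were called higher and 1 lower. In the thymocyte list, 4 of 16 tested were called higher and 0 lower (median log2 fold change 1.04). Rag1 (the recombinase of developing lymphocytes) measured 6.42, 4.56 and 3.38 CPM in mTEClo and 30.9, 32.3, 22.6, 22.4 and 25.5 CPM in mTEChi and Cd4 5.74, 8.07 and 4.50 CPM in mTEClo and 26.4, 22.5, 19.5, 25.1 and 20.6 CPM in mTEChi, both without overlap. The other calls, Coro1a and Lck, had log2 fold changes of 1.41 and 1.05. The list summed to 173 to 196 CPM in mTEClo and 274 to 336 CPM in mTEChi, and 4 of its 20 genes, Cd3d, Cd8b1, Ptcra and Rag2, had too few counts to be tested. In the myeloid and B list, 9 of 19 tested were called higher and 0 lower (median log2 fold change 1.34), summing to 284 to 418 CPM in mTEClo and 709.6 to 856 CPM in mTEChi. Examples are Ms4a1 (CD20) at 0.563 to 1.40 CPM in mTEClo and 3.70 to 9.35 CPM in mTEChi and Fcer1g at 1.40 to 5.74 CPM in mTEClo and 10.4 to 17.3 CPM in mTEChi. In the endothelium list, 4 of 9 tested were called higher and 0 lower (median log2 fold change 1.21), summing to 50.1 to 63.5 CPM in mTEClo and 109.7 to 152 CPM in mTEChi, with Cdh5 (VE-cadherin) at 0.563 to 1.35 CPM in mTEClo and 3.98 to 11.8 CPM in mTEChi and Flt1 at 10.7 to 18.6 CPM in mTEClo and 38.1 to 46.8 CPM in mTEChi. Emcn, an endothelial sialomucin, had 0 counts in the 3 mTEClo libraries and 2 in the 5 mTEChi libraries.

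In the mesenchyme list, 4 of 16 tested were called higher and 1 lower (median log2 fold change 0.75). Its summed CPM, at 1897 to 2311 CPM in mTEClo and 1324 to 1478 CPM in mTEChi, lay lower in mTEChi, most of it in mTEClo being Fn1 (fibronectin) at 1064 to 1544 CPM in mTEClo and 439.9 to 654 CPM in mTEChi, while Col1a2 and Pdgfrb rose by 1.52 and 1.29 on the log2 scale. Fn1 was not called without mTEClo replicate 3, and without mTEChi replicate 4, 2 members were called lower. In the erythroid list, 3 of 8 genes were tested and Slc4a1 (the band 3 anion exchanger) was the single call (log2 fold change 1.42 ± 0.50 (SE) with edgeR adjusted p = 0.0316), which was lost without mTEClo replicate 1, 2 or 3, without mTEChi replicate 1 or 4 and without both libraries of 6 days. The test within the 8 libraries called 8 thymocyte and 14 myeloid and B genes higher. The part of other cells in the results above was not tested. Of the immediate early and heat shock genes that rise during dissociation, 0 of 16 tested were called higher and 1 lower (median log2 fold change -0.20). Over all genes tested, 6.92% were called lower. The single call was Jun, at 109, 101 and 130.0 CPM in mTEClo and 29.3, 35.8, 57.5, 51.2 and 61.1 CPM in mTEChi. It was not called without the libraries of 6 days, and 2 members were called lower without mTEClo replicate 1 or 2 or mTEChi replicate 3, 4 or 5.

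Among all protein-coding genes that met the naming rule, the 12 largest rises were Chodl, Crisp3, Sis, Slc12a1, Nr4a3, Clec12a, Mmp13, Calb1, Dkk1, Fgf15, Ccl3 and Akr1c21, with log2 fold changes from 3.08 to 2.81. Nr4a3, an orphan nuclear receptor induced by activating signals, measured 5.07, 7.37 and 3.38 CPM in mTEClo and 50.6, 43.9, 43.2, 40.4 and 38.2 CPM in mTEChi (log2 fold change 2.97 ± 0.56 (SE) with edgeR adjusted p = 0.000373). Mmp13 (a collagenase) measured 5.74, 3.16 and 1.69 CPM in mTEClo and 28.1, 33.5, 32.2, 33.3 and 14.5 CPM in mTEChi (log2 fold change 2.91 ± 0.60 (SE) with edgeR adjusted p = 0.00105). Chodl (chondrolectin) lay at 0 to 2.36 CPM in mTEClo and 6.56 to 15.0 CPM in mTEChi and Fgf15, a hormone that enterocytes release in response to bile acids, at 0.563 to 2.03 CPM in mTEClo and 7.51 to 16.2 CPM in mTEChi. Slc12a1, the sodium-potassium-chloride cotransporter of the kidney, measured 1.01, 2.10 and 0.563 CPM in mTEClo and 10.1, 11.0, 9.90, 12.9 and 8.66 CPM in mTEChi, and Dkk1, a Wnt antagonist, 1.69, 3.16 and 1.13 CPM in mTEClo and 8.44, 16.2, 15.1, 16.4 and 20.6 CPM in mTEChi. In each of the 12 the lowest mTEChi library lay above the highest mTEClo library, which the rule required.

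The 12 largest falls were Klf15, Scarf2, Hic1, Fat3, Syngr1, Ackr4, Lgi2, Psmb11, Frem2, Cntnap4, Tmem169 and Cxcl12, from -3.46 to -2.96 on the log2 scale. Frem2, an extracellular matrix protein of epithelial basement membranes, measured 575, 603 and 805 CPM in mTEClo and 39.4, 46.8, 70.7, 164 and 82.4 CPM in mTEChi (log2 fold change -3.00 ± 0.34 (SE) with edgeR adjusted p = 1.45e-06). Fat3, an atypical cadherin, measured 333, 355 and 475 CPM in mTEClo and 20.8, 26.6, 28.1, 84.2 and 48.0 CPM in mTEChi (log2 fold change -3.17 ± 0.35 (SE) with edgeR adjusted p = 1.16e-06). Ackr4, the scavenger receptor that removes CCL19, CCL21 and CCL25, measured 124, 124 and 157 CPM in mTEClo and 4.50, 8.09, 16.5, 29.8 and 13.3 CPM in mTEChi (log2 fold change -3.12 ± 0.43 (SE) with edgeR adjusted p = 1.48e-05). Hic1, a transcriptional repressor, measured 29.4, 29.5 and 76.5 CPM in mTEClo and 2.81, 2.89, 3.58, 4.22 and 8.20 CPM in mTEChi, and Klf15 22.0, 20.3 and 35.4 CPM in mTEClo and 0, 0.578, 1.65, 4.22 and 3.28 CPM in mTEChi. Except for Scarf2, Hic1 and Cntnap4, mTEChi replicate 4 was the mTEChi library nearest to mTEClo in all of these genes. Over all 1398 genes called lower, replicate 4 was the highest mTEChi library in 842 (60.2%) and each of the others in 5.65 to 16.5%. Over the 2780 genes called higher, each mTEChi library was the lowest in 14.1 to 26.2%.

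Among long noncoding RNAs, 140 of 653 lincRNA genes were called higher and 46 lower, with a median log2 fold change of 0.49, and 77 of 862 antisense genes were called higher and 96 lower, with a median of -0.079. The 3 largest rises under the naming rule were 4930414F18Rik, 1810006J02Rik and D030068K23Rik, the last at 5.40, 5.26 and 3.94 CPM in mTEClo and 20.8, 24.8, 25.6, 20.9 and 24.6 CPM in mTEChi (log2 fold change 2.23 ± 0.43 (SE) with edgeR adjusted p = 0.000483). The 3 largest falls were Gm48742, Gm48740 and A830012C17Rik. Gm48740 measured 35.5, 36.8 and 51.8 CPM in mTEClo and 2.81, 2.31, 3.30, 6.07 and 5.15 CPM in mTEChi (log2 fold change -3.27 ± 0.40 (SE) with edgeR adjusted p = 2.92e-06), and Gm48742 19.6, 21.4 and 20.8 CPM in mTEClo and 0.563, 0.578, 2.20, 3.43 and 1.17 CPM in mTEChi (log2 fold change -3.49 ± 0.50 (SE) with edgeR adjusted p = 1.86e-05). Gm48740 lies at chr9:41551506-41559259 and Gm48742 at chr9:41405374-41532087 (GENCODE vM21, GRCm38). Counting without strand cannot separate such genes from transcripts on the other strand.

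The shares called differed by abundance. Among genes with a mean of 5 to 20 CPM, 19.8% were called higher and 8.11% lower, and among genes above 100 CPM 4.85% were called higher and 5.75% lower. The class of 5 to 20 CPM had the highest share of genes called higher among 5 classes. Duplicate reads had been removed before counting, and the counts of mitochondrial genes were 7510 to 9958 in all 8 libraries although total counts differed over 2-fold. The part of duplicate removal in the shares called was not tested.

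More genes were detected in mTEChi than in mTEClo at equal depth. When every library was thinned to 1600000 counts, the expected number of genes with at least 1 count was 27050, 26949 and 26134 in mTEClo and 28671, 28879, 29660, 29401 and 29249 in mTEChi. The groups did not overlap, and the means of 26711 ± 502 (SD, n = 3) and 29172 ± 398 (SD, n = 5) differed by 2461 genes (2-sided exact permutation test, p = 0.0357, the smallest p that 5 against 3 libraries allow). For protein-coding genes alone, thinned to 1500000 counts, the means were 17137 ± 175 (SD, n = 3) and 18219 ± 49.3 (SD, n = 5), again without overlap (exact permutation test, p = 0.0357). Without thinning, the deeper mTEChi libraries had up to 34241 genes, the shallow ones of 6 days 29080 and 29138, and the 2 groups overlapped (exact permutation test, p = 0.214).

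**Figure D4:**
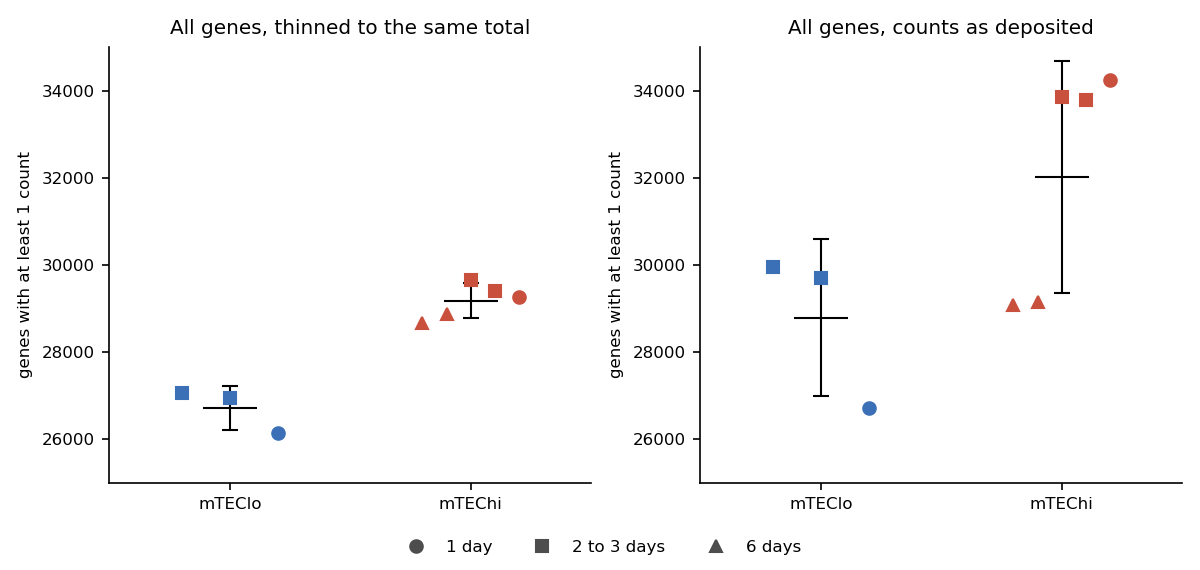
Genes with at least 1 count (y axis, not starting at 0) in each library of mTEClo (blue, n = 3) and mTEChi (red, n = 5), thinned to 1600000 counts (left) and as deposited (right), with the marker shape giving age and black bars the mean and SD. At equal depth all mTEChi libraries lie above all mTEClo libraries; as deposited, the 6-day libraries lie among the mTEClo values.

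To see how the neonatal step compares with the adult one, the neonatal fold change was set against that of adult WT mTEChi (7 libraries) and mTEClo (8 libraries) from C57BL/6 mice of 4 to 5 weeks in 1 fit across 20125 genes. With its sign kept, the neonatal log2 fold change lay above the adult one in 1383 genes (6.87%) and below it in 3119 (15.5%). Both counts required a difference of at least 2-fold and an edgeR adjusted p below 0.05. A positive difference thus also covers genes that fell less in neonates than in adults. The adult and neonatal libraries were deposited as separate tables and labelled WT and Ctrl, so age, table and genotype label cannot be told apart. The labels do not say which sequencer read each library. CPM values in the following comparison come from this joint fit.

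Most proliferation genes rose in adults, and none was called higher in neonates. Of the cell cycle genes, 24 of 40 were called higher in adult mTEChi in this fit, in which 25.3% of all genes were. Of the same list, 0 of 40 had a called positive difference and 30 a negative one, with a median log2 fold change of -0.33 in neonates and 1.19 in adults. Mki67 had 526 ± 11.2 CPM in neonatal mTEClo (SD, n = 3), 478 ± 93.9 CPM in neonatal mTEChi (SD, n = 5), 110.2 ± 19.4 CPM in adult mTEClo (SD, n = 8) and 256 ± 66.6 CPM in adult mTEChi (SD, n = 7), and the difference of log2 fold changes was -1.36 ± 0.22 (SE) with edgeR adjusted p = 1.25e-05. Cdk1 had log2 fold changes of -0.059 in neonates and 1.84 in adults (difference -1.90 ± 0.20 (SE) with edgeR adjusted p = 6.19e-09).

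Cortical genes fell in neonates and had another pattern in adults. Of the cTEC list, 1 of 18 had a called positive difference and 10 a negative one, with a median log2 fold change of -1.27 in neonates and 0.32 in adults. Psmb11 had 276 ± 95.4 CPM in neonatal mTEClo (SD, n = 3), 31.8 ± 26.2 CPM in neonatal mTEChi (SD, n = 5), 5.00 ± 4.12 CPM in adult mTEClo (SD, n = 8) and 6.31 ± 1.93 CPM in adult mTEChi (SD, n = 7) (difference -3.47 ± 0.60 (SE) with edgeR adjusted p = 3.08e-05). Dll4 had 181 ± 38.1 CPM in neonatal mTEClo (SD, n = 3), 60.6 ± 6.34 CPM in neonatal mTEChi (SD, n = 5), 13.4 ± 4.99 CPM in adult mTEClo (SD, n = 8) and 79.1 ± 12.4 CPM in adult mTEChi (SD, n = 7) (difference -4.19 ± 0.21 (SE) with edgeR adjusted p = 3.68e-15). Dll4 thus fell in neonates and rose in adults. Enpep had log2 fold changes of -0.76 and 2.96 (difference -3.72 ± 0.19 (SE) with edgeR adjusted p = 5.63e-15).

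The log2 fold changes of Aire, Cd80 and most Aire-dependent antigens were smaller in neonates than in adults, and Aire itself was not called in neonates. Aire had 343 ± 0.785 CPM in neonatal mTEClo (SD, n = 3), 648 ± 173 CPM in neonatal mTEChi (SD, n = 5), 70.4 ± 34.2 CPM in adult mTEClo (SD, n = 8) and 831 ± 58.6 CPM in adult mTEChi (SD, n = 7) (difference -2.67 ± 0.34 (SE) with edgeR adjusted p = 2.66e-07). Cd80 had log2 fold changes of 1.39 and 3.36 (difference -1.98 ± 0.17 (SE) with edgeR adjusted p = 3.10e-10), and of the costimulation list, 0 of 12 had a called positive difference and 7 a negative one, with a median log2 fold change of 0.71 in neonates and 2.26 in adults. Of the Aire-dependent antigens, 1 of 20 had a called positive difference and 13 a negative one, with a median log2 fold change of 1.61 in neonates and 3.60 in adults. Fezf2 had log2 fold changes of 1.25 and 1.17, and their difference of 0.081 ± 0.20 (SE) with edgeR adjusted p = 0.796 was within its error.

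In the other direction, the difference was positive for most tuft genes, whose median fell less in neonates than in adults. None of those tested was called in the neonatal fit across 24 libraries, though the test within the 8 libraries called some lower. Of the tuft list, 15 of 19 had a called positive difference and 0 a negative one, with a median log2 fold change of -0.68 in neonates and -2.73 in adults, and Trpm5 had 65.8 ± 1.10 CPM in neonatal mTEClo (SD, n = 3), 39.7 ± 3.42 CPM in neonatal mTEChi (SD, n = 5), 568 ± 83.2 CPM in adult mTEClo (SD, n = 8) and 74.8 ± 16.1 CPM in adult mTEChi (SD, n = 7) (difference 2.20 ± 0.20 (SE) with edgeR adjusted p = 5.97e-10). Of the interferon-stimulated list, 13 of 32 had a called positive difference and 0 a negative one, with a median log2 fold change of -0.47 in neonates and -1.16 in adults. Of the cornified keratinocyte list, 10 of 23 had a called positive difference and 2 a negative one, with a median log2 fold change of 1.17 in neonates and 0.047 in adults. Krt14 had log2 fold changes of -0.31 and -1.73 (difference 1.42 ± 0.17 (SE) with edgeR adjusted p = 1.13e-07).

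**Figure D5:**
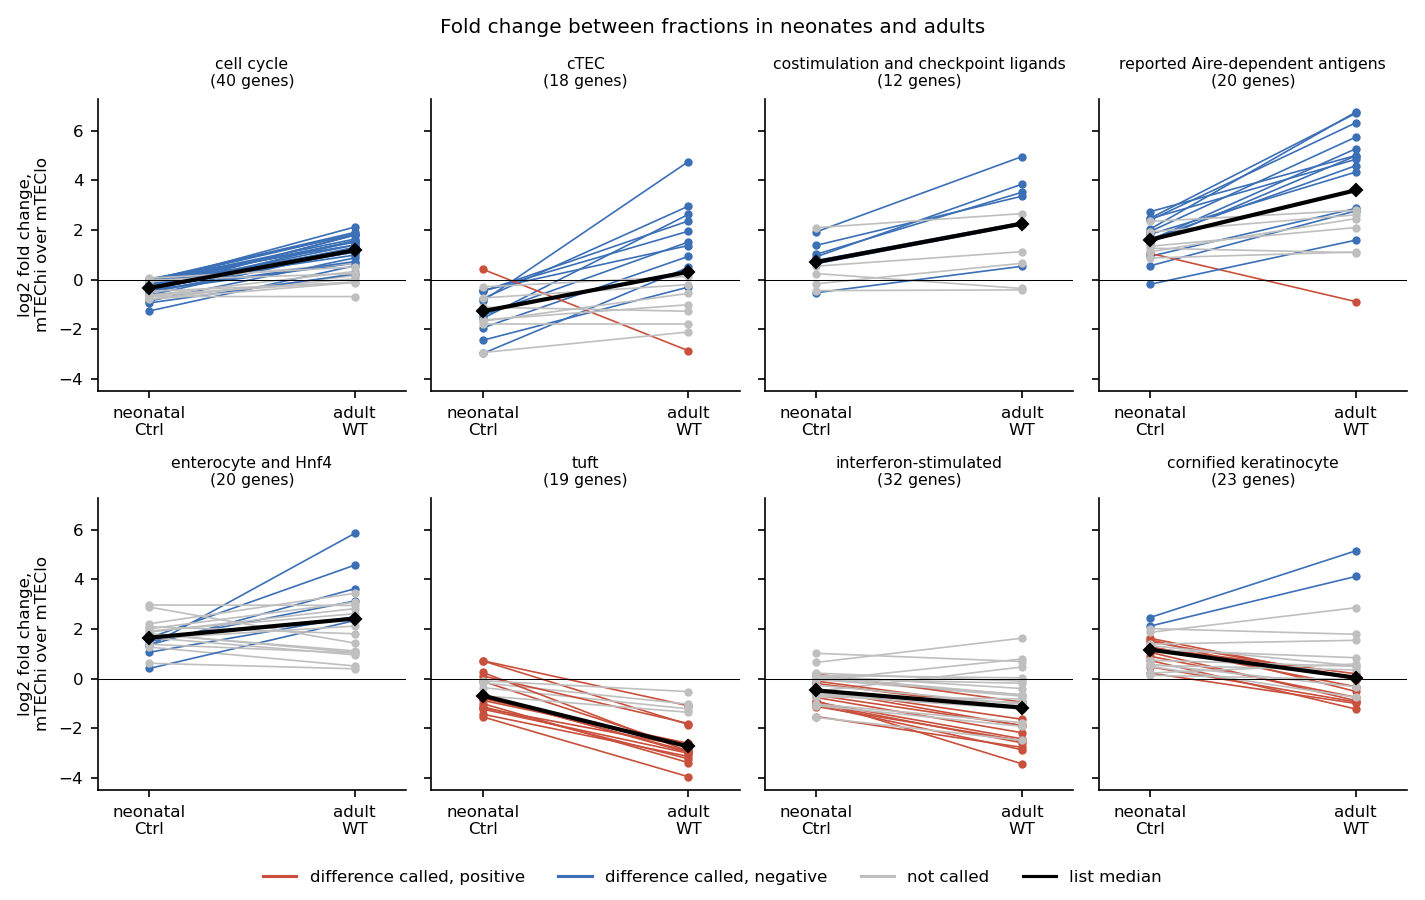
Log2 fold change of mTEChi over mTEClo (y axis) in neonatal Ctrl and adult WT mice for the members of 8 lists, each gene a line and the list median in black. Blue lines are genes with a called negative difference of log2 fold changes, neonatal minus adult, and red lines genes with a called positive one. Cell cycle and cTEC genes run upward from neonate to adult, and tuft genes downward.

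By the naming rule, the 5 clearest differences in each direction were Adcy2, Cald1, Clca3a1, Robo2 and Slit2 (positive) and Rassf2, Pkhd1l1, Dll4, Cd83 and Snap91 (negative). Cd83, which stabilises surface MHC-II, had 107 ± 41.3 CPM in neonatal mTEClo (SD, n = 3), 57.4 ± 11.1 CPM in neonatal mTEChi (SD, n = 5), 1.78 ± 0.624 CPM in adult mTEClo (SD, n = 8) and 51.1 ± 7.89 CPM in adult mTEChi (SD, n = 7) (difference -5.61 ± 0.29 (SE) with edgeR adjusted p = 4.96e-15). Adcy2, an adenylyl cyclase, had 9.80 ± 0.960 CPM in neonatal mTEClo (SD, n = 3), 17.4 ± 4.14 CPM in neonatal mTEChi (SD, n = 5), 144 ± 12.3 CPM in adult mTEClo (SD, n = 8) and 15.3 ± 2.45 CPM in adult mTEChi (SD, n = 7) (difference 4.07 ± 0.21 (SE) with edgeR adjusted p = 5.63e-15). For both genes adult mTEClo stood apart from the other 3 groups. Slit2, a guidance ligand, and its receptor gene Robo2 had adult log2 fold changes of -3.33 and -2.28 against -0.95 and 0.056 in neonates.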

How the data were processed

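RNA was measured from sorted neonatal mTECs in RamDA-type libraries. Per the labels and the submitters' processing notes, the authors trimmed reads with fastp (0.20.0), aligned them to mm10 (GRCm38) with STAR (2.7.3a), dropped alignments of mapping quality below 5 with SAMtools (1.9), removed duplicates with Picard (2.21.1) and counted reads per Ensembl gene without regard to strand with HTSeq (0.11.2); the Ensembl release is not given in the sources used here. The deposited values are raw gene counts, 1 table for neonatal and 1 for adult mice, and both were used. Duplicate removal without molecular identifiers lowers counts of abundant transcripts, so fold changes of such genes may be compressed. The floors cover counting error only, whereas the SEs come from the edgeR test and include the spread between libraries.

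Genes were filtered with filterByExpr, scaled by TMM and tested with edgeR (4.0.16, R 4.3.3, quasi-likelihood F-test, Benjamini-Hochberg adjustment) over the 24 neonatal libraries in 7 groups. Calls required an adjusted p below 0.05 and at least a 2-fold change. The neonatal and adult changes were compared in 1 edgeR fit of 23 libraries over 53402 genes present in both tables. Genes detected at equal depth are the expected number after thinning to 1600000 counts, compared by an exact permutation test of the fraction labels. On simulated counts for 19759 genes, 100 genes were changed 2-fold and 100 changed 4-fold. The mTEChi against mTEClo test gave 47% and 82% of them an adjusted p below 0.05 in the right direction, with no fold limit applied. The 2-fold genes had a median absolute log2 fold change of 0.97, below the limit for a call. With the fold limit, 7 unchanged genes were called.

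The libraries, gene lists and tests were chosen with earlier results of these data known. Named genes are fixed anchors of mTEC biology; the 12 protein-coding and 3 long noncoding genes with the largest called change in each direction, among those without overlap between fractions, whose mean reached 10 CPM in the higher and over 3 counts in the lower fraction; up to 3 called members per list and direction, with other members where needed to account for a list; and the 5 genes with the smallest p in each direction for the difference to adult mice. Further list members were added to the named genes after their values were seen, to describe each list. Promoters are RefSeq sequences of GRCm38.p6, gene positions GENCODE vM21. Alternatives were other scalings, filters, sample sets, DESeq2 (1.42.0), a replicate block, age and sex matched libraries and each library left out in turn, and, chosen after seeing the data, depth as a covariate and thinning without mitochondrial genes. The levels of Xist and Ddx3y matched the labelled sex in all 8 libraries. A result for 1 gene is not reported here.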

Additional observations from a re-analysis of the deposited data

Results flagged for a closer look

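Among 234 sets of 5 mTEChi values examined, 10 had 1 library apart from the other 4 by more than Dixon's 95% limit, and chance alone flags about 1 in 20 sets. Enpep lay at 51.4 CPM in mTEChi replicate 2, Mmp13 at 14.5 CPM and Hic1 at 8.20 CPM in replicate 5, and Cdh5 at 11.8 CPM in replicate 3. In replicate 4, A830012C17Rik lay at 3.17 CPM, Xrcc5 at 57.3 CPM and Foxi1 at 26.1 CPM. Of the summed levels, the mTEClo and basal keratin list lay at 2817 CPM in replicate 4, the ciliated list at 773 CPM in replicate 5 and the ionocyte list at 177 CPM in replicate 1. The ranges of the other 4 libraries are 37.1 to 41.3 CPM for Enpep, 28.1 to 33.5 CPM for Mmp13, 2.81 to 4.22 CPM for Hic1, 0.550 to 0.703 CPM for A830012C17Rik, 31.2 to 35.4 CPM for Xrcc5, 12.1 to 14.6 CPM for Foxi1, 3.98 to 6.19 CPM for Cdh5, 2431 to 2539 CPM for mTEClo and basal keratin, 667 to 690.2 CPM for ciliated and 225 to 234 CPM for ionocyte.

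The mTEChi over mTEClo change differed between neonatal and adult mice, by the edgeR test of the difference itself, in 1383 genes with a positive and 3119 with a negative difference. The clearest differences of log2 fold changes, neonatal minus adult, were 4.07 for Adcy2, 2.24 for Cald1, 2.24 for Clca3a1, 2.33 for Robo2 and 2.39 for Slit2, and -2.72 for Rassf2, -4.30 for Pkhd1l1, -4.19 for Dll4, -5.61 for Cd83 and -3.56 for Snap91. In the joint fit 83 genes fell in neonates and rose in adults, and 49 rose in neonates and fell in adults. Age, the separate tables of the experiments and the genotype labels (Ctrl and WT) cannot be told apart.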

How the results depend on the processing

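Counts of genes called higher and lower in mTEChi stayed between 2276 and 3429 and between 1118 and 1515 under other scalings, filters, DESeq2 and sample sets, within 1.5 times the reported 2780 and 1398. With no minimum change 7547 genes were called, 3640 of them lower. Leaving out each library in turn gave 1836 to 2651 higher and 991 to 1524 lower, the lowest without mTEClo replicate 3. Over all lists, 146 members were called higher and 44 lower, 84 to 138 and 29 to 51 when each library was left out, the lowest again without mTEClo replicate 3, and 104 lower with no minimum change. For the difference to adult mice, 7201 genes were called with no minimum change, 2679 of them positive, and leaving out each neonatal library gave 4011 to 4466 in all. The difference in genes detected was 3240 without thinning (exact permutation p = 0.214), 2726 without the libraries of 6 days (exact permutation p = 0.1) and 2173 to 2631 with each library left out, and the designs with fewer libraries cannot reach a p below 0.05. Of 198 named genes, 158 were called, of which 104 remained called without mTEClo replicate 3, 135 without the libraries of 6 days, 149 with DESeq2 and 156 of 156 within the 8 libraries. Without 1 library, 8 called genes moved by over 1.5 times: without mTEClo replicate 1 Ccl28 was at 3.36, Cdkn2a at 2.50, Clec12a at 4.44, Sox8 at 2.22 and Isg15 at -0.62, without replicate 2 Foxa2 at 3.86, and without replicate 3 Hspg2 at -0.67 and Muc5b at -0.97, of which the changes of Isg15, Hspg2 and Muc5b were not called.

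The sign of 10 named genes that were not called changed. Age and sex matched libraries with a stratum block, the same without the block, and all but the libraries of 6 days gave -0.28, -0.30 and -0.32 for Cd74, -0.15, -0.15 and -0.17 for H2-Aa, -0.23, -0.23 and -0.26 for H2-Ab1, -0.077, -0.077 and -0.10 for Epcam, -0.0091, -0.015 and -0.040 for Eed, and -0.018, -0.045 and -0.059 for Robo2. Cdk1 was at 0.013 with RLE size factors, 0.0067 with library sizes alone, 0.0048 without the filter and 0.018 with DESeq2. With each library left out in turn, Cd74 ranged from -0.074 to 0.30, H2-Ab1 from -0.071 to 0.21, Robo2 from -0.013 to 0.29, Rsad2 from -0.012 to 0.20, Cdk1 from -0.11 to 0.021 and Snap91 from -0.22 to 0.0078. The causes were not tested.

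Deviations from the group means did not go together in same-numbered libraries (r = -0.024, -0.012 and -0.14 across genes), so the numbers do not pair the libraries. Each mTEClo library correlated best with the mTEChi library of its own age and sex (r = 0.16, 0.043 and 0.10), a match that the main test did not use. With that match as a block in the age and sex matched libraries, 2937 genes were called higher and 1129 lower. The same fit called 166 list members higher and 39 lower, and 143 of 154 named genes remained called. With the replicate number as a block, 2608 genes were called higher and 1515 lower, 159 and 61 list members, and 146 of 156 named genes remained called; Cdk1 was at 0.058, Ifit1 at -0.070 and Rsad2 at -0.14. Low counts limit genes under the floor of 0.703 to 1.73 CPM, and mTEClo rested on 3 libraries.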
